A study of Mus musculus with 36 samples.

Results

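Expression of 9 pre-granulosa cell genes, Foxl2, Fst, Bmp2, Irx3, Irx5, Runx1, Msx1, Cdkn1b and Kitl, was followed in bulk RNA-seq of mouse gonads that lack the miR-17~92 microRNA cluster. The 9 genes were taken by their symbols from the gene names of the count tables. The rule itself uses no expression value, but the set was drawn up with earlier results of these data known. All 9 were present among the 21699 genes of the tables and all 9 passed the filter on low counts at both stages. All 4 genotypes were sequenced at embryonic stages E11.5 and E12.5, with 3 libraries in each of the 8 groups, and each library was a pool of 2 pairs of gonads. XX KO and XY KO embryos were homozygous for a deletion of the cluster (miR-17~92 del/del) made with the Tg(CAG-cre)1Nagy transgene, whose ubiquitous CAG promoter means that the deletion was not restricted to the gonad. XX control and XY control embryos are labelled WT, without further description of their alleles, and the line is kept on a mixed background that includes C57BL/6. The gonads were sequenced together with the mesonephros at E11.5 and alone at E12.5, and the library kits differed too, so the stages were not tested against each other. The labels do not say whether pools came from different litters, so p-values measure the spread between these pools.

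Pre-granulosa cells are the supporting cells of the fetal ovary and arise from the same precursors as the Sertoli cells of the testis. In XY gonads Sry switches on Sox9 and the precursors become Sertoli cells, which produce anti-Müllerian hormone (Amh). In XX gonads WNT4, RSPO1 and β-catenin signalling maintain the ovarian programme, and the precursors turn on Foxl2, a forkhead transcription factor that keeps granulosa cells from taking on Sertoli cell features. The other 8 genes cover transcription factors (Irx3, Irx5, Runx1, Msx1), secreted proteins (Fst, Bmp2, Kitl) and a cyclin-dependent kinase inhibitor, p27 (Cdkn1b).

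The deleted microRNAs fall into 4 seed families, and their sequences are shown because a microRNA recognises its targets mainly through the seed, bases 2 to 8 of the mature strand. The mature sequences are from RefSeq, their genes lie on the plus strand of chromosome 14, and the capitals mark the seed:
miR-17-5p: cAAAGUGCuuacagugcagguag
miR-20a-5p: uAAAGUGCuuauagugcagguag
miR-18a-5p: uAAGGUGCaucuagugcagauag
miR-19a-3p: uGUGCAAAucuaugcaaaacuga
miR-19b-3p: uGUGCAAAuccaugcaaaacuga
miR-92a-3p: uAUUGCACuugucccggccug
The DNA letters complementary to these seeds are GCACTTT for miR-17 and miR-20a, GCACCTT for miR-18a, TTTGCAC for miR-19a and miR-19b, and GTGCAAT for miR-92a. They were searched on the sense strand of the longest annotated 3′ UTR of each gene in GENCODE transcripts of GRCm38. Of the 9 genes, 4 held such letters, with 5 matches in all. The matches are printed as 24-base windows in the direction of transcription, with the matched letters in capitals:
Foxl2 (miR-17 family), chr9:98958034-98958057, plus strand: ggaactagaGCACTTTtgttgtgt
Fst (miR-92 family), chr13:114452326-114452349, minus strand: catgtaaatGTGCAATgtatataa
Runx1 (miR-17 family), chr16:92603802-92603825, minus strand: agagcagcaGCACTTTggtaacct
Runx1 (miR-18 family), chr16:92605365-92605388, minus strand: ttcttttccGCACCTTatcgattg
Cdkn1b (miR-19 family), chr6:134922253-134922276, plus strand: aatgcagtaTTTGCACcccaagat
Bmp2, Irx3, Irx5, Msx1 and Kitl held no such match anywhere in the 3′ UTR searched. Among genes whose 3′ UTR had a like length, the share with a match of any family was 38.8% for Foxl2 and 35.5% for Fst. It was 67.3% for Runx1, 60.7% for Cdkn1b and 69.6% for Kitl, so such a match was common at the lengths of these last genes. Over Irx3, Irx5, Msx1 and Bmp2 it ran from 9.47% for Irx3 to 30.3% for Bmp2. The share over all protein-coding genes with a 3′ UTR was 28.8%. For the single family whose match is shown, the like-length share was lower, from 6.6% for Fst (miR-92) to 30.8% for Runx1 (miR-17), with 15.4% for Foxl2 (miR-17). A match describes letters only, and no binding was measured here.

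Total counts per library were between 11877379 and 44155275. Counts of Mir17hg, the gene that hosts the cluster, were between 98.2 and 154 CPM (counts scaled to the library total) in the KO libraries of E11.5 and between 17.6 and 44.6 in the controls, and between 66.7 and 83.8 against 13.4 and 37.3 at E12.5. These gene-level counts are not split into deleted and remaining parts of the locus, so they do not check the deletion, although KO and control libraries did not overlap. Of the genes that define Sertoli cells, Amh at E12.5 stood at 646 to 1130 CPM in XY controls, 0.404 to 1.08 in XX controls, 1.05 to 3.19 in XY KO and 0.472 to 1.18 in XX KO gonads. Sox9 stood at 117 to 143 CPM in XY controls, 4.84 to 7.48 in XX controls, 9.12 to 21.3 in XY KO and 4.77 to 10.1 in XX KO gonads. XY KO gonads thus had Sox9 and Amh far below the XY controls, and above the XX controls by the test (log2 fold changes of 1.35 and 1.83, FDR 0.0238 and 0.0464). FDR stands for the Benjamini-Hochberg adjusted p of edgeR's quasi-likelihood test over all tested genes of a stage, and a gene with an FDR under 0.05 is called a DEG. In bulk tissue, fewer cells of a type and less RNA per cell cannot be told apart.

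At E11.5, 4 of the 9 genes were DEGs between control gonads, all higher in XX than in XY controls: Foxl2, Fst, Bmp2 and Kitl. Over all 14217 tested genes 0.886% were DEGs in this comparison and 0.359% were higher in XX. The 3 XX control libraries lay above all 3 XY control libraries for 8 of the 9 genes, every one but Irx5, against 8.93% of all tested genes. Kitl lost its call without XX control replicate 1 (FDR 0.0602), XX control replicate 3 (0.0865) or XY control replicate 3 (0.076), and Msx1 gained one without XX KO replicate 1 (0.0374) or 2 (0.0413). Of the 9, 7 passed without XY control replicate 2 and 7 by DESeq2, but the number of all genes called also went up from 126, to 2495 and 439. XY KO gonads stayed below XX controls for 8 of the 9 genes, while Foxl2 and Bmp2 had risen above the XY controls. XX KO gonads were lower than XX controls for Fst, Irx3 and Kitl.

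**Figure D1:**
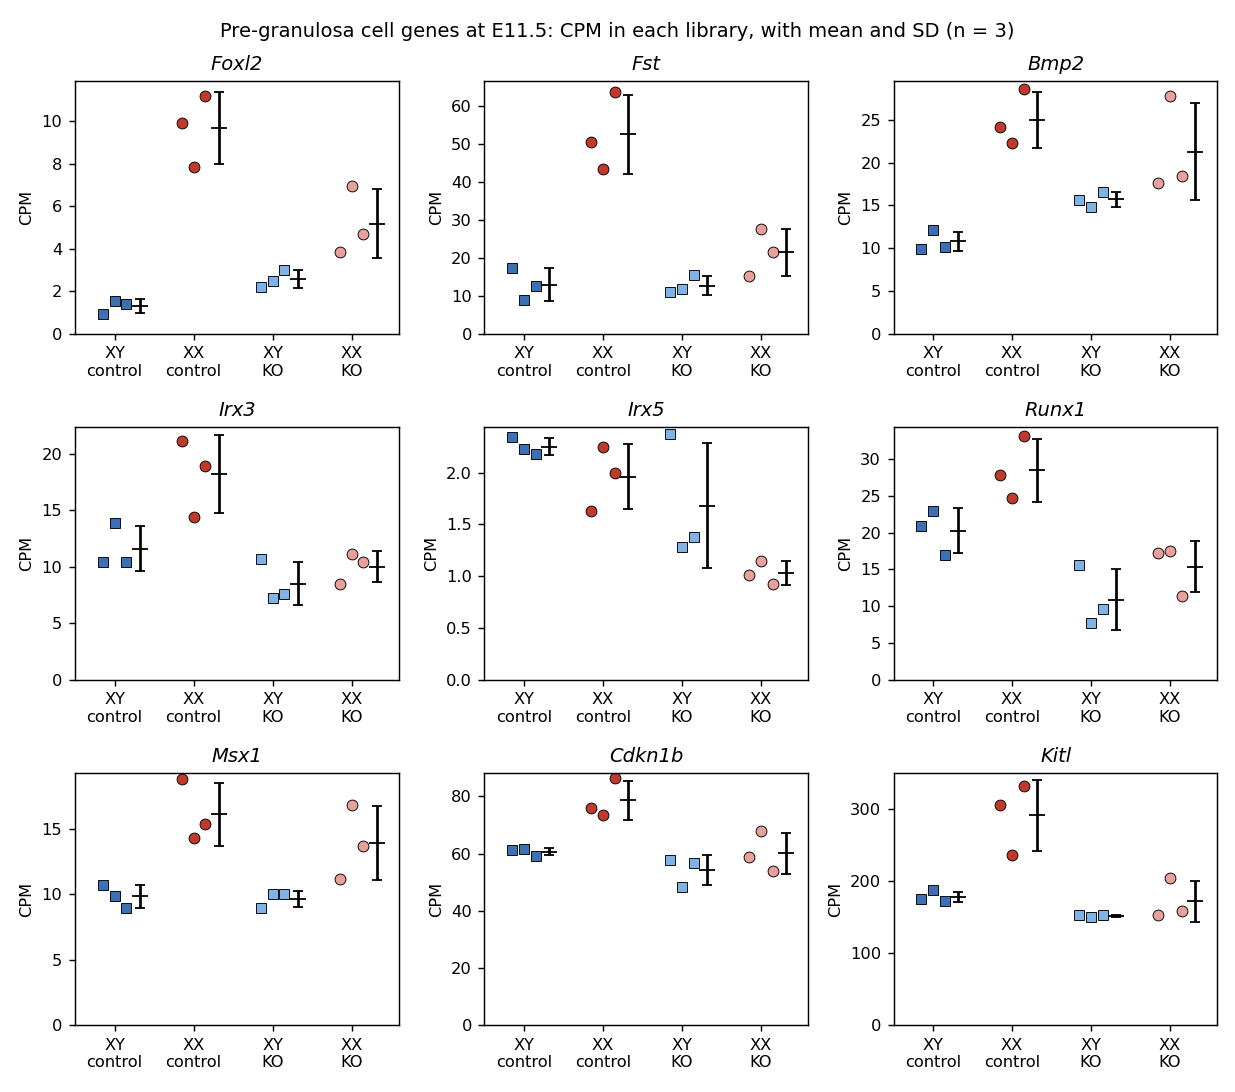
CPM of the 9 genes at E11.5 in each of the 12 gonad-mesonephros libraries (points), with the mean and SD of each genotype (bars, n = 3, y axis from 0). Foxl2 and Fst were highest in the 3 XX control libraries, and for Foxl2 the 3 XY KO libraries (2.19 to 3.02 CPM) lay between the XY controls and the XX KO libraries.

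Foxl2 (ENSMUSG00000050397) lies on the plus strand of chromosome 9 of GRCm38, from 98955288 to 98958543. At E11.5 it stood at 0.919, 1.56 and 1.38 CPM in XY controls, 9.93, 7.86 and 11.2 in XX controls, 2.19, 2.46 and 3.02 in XY KO and 3.83, 6.97 and 4.7 in XX KO gonads. The 4 genotypes did not overlap and followed the order XY control, XY KO, XX KO, XX control. Foxl2 was 7.42-fold higher in XX than in XY controls (log2 fold change 2.89 ± 0.274 SE, FDR 3.16e-05) and rose 1.96-fold in XY KO over XY control gonads (0.97 ± 0.283, FDR 0.0351). The latter call was lost with the 6 compared libraries alone (FDR 0.0818) and without XX control replicate 1 (0.0501), XY control replicate 1 (0.133) or 3 (0.0677), or XY KO replicate 1 (0.0583), 2 (0.0771) or 3 (0.0992). XY KO gonads remained 3.78-fold below XX controls (FDR 0.000464). In XX KO gonads the difference from XX controls was −0.90 ± 0.243 on the log2 scale with an FDR of 0.0562, which missed the threshold.

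Runx1 (ENSMUSG00000022952, minus strand of chromosome 16, from 92601466 to 92826149) encodes a transcription factor of blood cell and gonadal supporting cell development. At E11.5 it stood at 20.9, 23 and 17 CPM in XY controls, 27.8, 24.7 and 33.1 in XX controls, 15.6, 7.64 and 9.64 in XY KO and 17.2, 17.5 and 11.4 in XX KO gonads. All KO libraries of a sex lay below the controls of that sex. Runx1 fell in XY KO against XY control gonads (log2 fold change −0.88 ± 0.235, FDR 0.0259), and the XX difference of −0.89 ± 0.23 had an FDR of 0.0511. The summed level of 9 macrophage markers moved with it: 117 to 151 CPM in XY controls and 125 to 145 in XX controls, against 83.2 to 115 in XY KO and 73.7 to 104 in XX KO gonads. In each KO comparison 3 of those 9 markers were DEGs, all lower, and all 9 passed the filter on low counts. Their part in the Runx1 result was not tested.

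Irx3 and Irx5 encode homeobox transcription factors of the Iroquois family and lie 556 kb apart on chromosome 8 (Irx3, ENSMUSG00000031734, minus strand, from 91798525 to 91802067, and Irx5, ENSMUSG00000031737, plus strand, from 92357625 to 92376286). Irx3 at E11.5 stood at 10.4, 13.9 and 10.4 CPM in XY controls, 21.1, 14.4 and 18.9 in XX controls, 10.7, 7.23 and 7.54 in XY KO and 8.47, 11.1 and 10.4 in XX KO gonads. It did not pass the test between controls (FDR 0.134), but fell in XX KO against XX control gonads (log2 fold change −0.86 ± 0.194, FDR 0.0255) and was lower in XY KO than in XX control gonads (−1.09 ± 0.196, FDR 0.00337). A list of 8 mesonephric tubule and duct markers had 4 DEGs, all lower, in the latter comparison. Its sums were 215 to 224 CPM in XY KO and 317 to 342 in XX control complexes. In XX KO against XX control complexes 0 of the 8 were DEGs, with sums of 257 to 305 CPM in XX KO. The part of this list in the Irx3 results was not tested. Irx5 was scarce at E11.5, between 0.922 and 2.37 CPM over all 12 libraries, and passed no test. It was the only one of the 9 genes with a lower mean in XX than in XY controls.

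Msx1 (ENSMUSG00000048450, minus strand of chromosome 5, from 37820485 to 37824583), a homeobox gene induced by BMP signalling, was between 8.96 and 18.8 CPM over the 12 libraries of E11.5. XX controls were above XY controls with an FDR of 0.0551 (log2 difference 0.71 ± 0.164), and XY KO gonads were below XX controls (−0.74 ± 0.165, FDR 0.0124). Msx1 is the member whose count depended most on how reads were assigned. In a second count table of the XY controls, over both stages, it had 2.05 to 5.2 times as many reads, whereas 7 of the other 8 genes had between 0.956 and 1.27 times as many and Cdkn1b 1.19 to 1.34 times. RefSeq lists an antisense RNA, Msx1os, over 53.4% of the Msx1 span, and the strand setting of either count is not given in the sources used here. Foxl2, Fst, Irx3 and Runx1 also share up to 124 bases of exon with antisense genes annotated in GENCODE. RefSeq further lists long non-coding RNAs over 37.0% of the Fst span and 2.24% of the Runx1 span. The reads of antisense partners cannot be told apart without strand.

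Among the secreted proteins, Fst (follistatin, ENSMUSG00000021765, minus strand of chromosome 13, from 114452290 to 114458951) binds and blocks activin. At E11.5 it stood between 8.89 and 17.4 CPM in XY controls, and at 50.3, 43.3 and 63.7 in XX controls, 10.9, 11.8 and 15.5 in XY KO and 15.1, 27.6 and 21.4 in XX KO gonads. XY KO and XY control libraries overlapped, and all 3 XY KO values lay between the lowest and highest XY control, with a log2 difference of −0.02 (95% interval −0.59 to 0.55). XX KO gonads fell 2.45-fold below XX controls (log2 fold change −1.29 ± 0.252, FDR 0.016).

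Bmp2 (ENSMUSG00000027358, plus strand of chromosome 2, from 133552159 to 133562885) encodes a bone morphogenetic protein made by ovarian somatic cells. It stood at 9.97, 12.1 and 10.2 CPM in XY controls, 24.2, 22.3 and 28.6 in XX controls, 15.6, 14.8 and 16.6 in XY KO and 17.6, 27.8 and 18.5 in XX KO gonads at E11.5. It rose in XY KO over XY control gonads (log2 fold change 0.54 ± 0.169, FDR 0.0481) and remained below XX controls (−0.67 ± 0.166, FDR 0.0209). XX KO and XX control libraries overlapped.

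Kitl (ENSMUSG00000019966, plus strand of chromosome 10, from 100015630 to 100100416) encodes KIT ligand, which germ cells need for survival and migration through their receptor KIT. It stood at 175, 187 and 173 CPM in XY controls, 305, 236 and 332 in XX controls, 153, 150 and 153 in XY KO and 153, 205 and 159 in XX KO gonads at E11.5. XX KO gonads fell 1.69-fold below XX controls (log2 fold change −0.76 ± 0.126, FDR 0.00446), with a mean of 172 CPM beside 178 in XY controls. Kit itself was not a DEG in any comparison at E11.5 and lay between 54.4 and 88.6 CPM. The summed level of 7 germ cell markers was variable at this stage, from 67.2 to 216 CPM in XX control and from 39.5 to 119 in XX KO libraries, and none of the 7 was a DEG.

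Cdkn1b (ENSMUSG00000003031, plus strand of chromosome 6, from 134920401 to 134925513), whose product p27 halts the cell cycle, varied little at E11.5. It was between 59.1 and 61.5 CPM in XY controls, 73.6 and 86.4 in XX controls, 48.3 and 57.7 in XY KO and 53.8 and 67.9 in XX KO gonads. XY KO gonads were lower than XX controls (log2 fold change −0.53 ± 0.104, FDR 0.00574), and the XX KO difference of −0.39 ± 0.104 had an FDR of 0.0561.

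In counts over the 9 genes at E11.5, XY KO against XY control gonads gave 2 higher and 1 lower DEG, with 12.7% of all tested genes called, 5.88% higher and 6.81% lower. The median log2 difference of the 9 was −0.16, beside −0.03 for all genes. These 3 calls were weak. With only the 6 libraries compared none of the 3 passed, and likewise without XY control replicate 1 (FDR 0.133 for Foxl2, 0.146 for Bmp2 and 0.0765 for Runx1), XY KO replicate 2 (0.0771, 0.0872 and 0.0928) or XY KO replicate 3 (0.0992, 0.107 and 0.0871). A single call was left without XX control replicate 1, XY control replicate 3 or XY KO replicate 1, 2 were left without XX control replicate 2 or 3 or XY control replicate 2, and the 3 genes kept their directions throughout.

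XY KO against XX control gonads gave 8 lower DEGs of 9 at E11.5, with 9.09% of all tested genes called and 5.28% lower. The sum of 6 markers of gonadal somatic cells of both sexes moved with them, at 1020 to 1220 CPM in XY KO and 1300 to 1440 in XX control complexes. Of these 6 markers 2 were DEGs, both lower, and all 6 had a negative log2 difference with a median of −0.30. In XX KO against XX control complexes 0 of the 6 were DEGs, with a median of −0.13. Their part in the result was not tested. For XY KO against XX control gonads, leaving out single libraries kept 6 to 8 of the calls among the 9. Bmp2 was lost without XX control replicate 1 or 3 or any XY KO replicate (FDR 0.0514 to 0.102), and Msx1 without XX control replicate 1 (0.0693) or XY KO replicate 1 (0.0555). The same XX control libraries entered the comparison with XX KO gonads, where 3 of the 9 were lower and none higher, with 3.27% of all tested genes called and 1.46% lower. All 9 had a negative log2 difference there, with a median of −0.86 beside 0 for all genes, and the 3 XX KO libraries lay below all XX controls for 7 of the 9, every one but Bmp2 and Msx1 (11.9% of all genes). This count varied with the method and the libraries, as DESeq2 called 6, library size as the only scaling 5, and it was 1 without XX control replicate 3 or XX KO replicate 3, but 5 when the data of XX KO replicate 2 were left out, or those of XY control replicate 2. Fst was lost when XX control replicate 3 (0.061) or XX KO replicate 3 (0.0631) was left out, Irx3 without those, XX control replicate 1 (0.116) or XX KO replicate 1 (0.0946), and Kitl was called throughout. Foxl2 gained a call without XX KO replicate 2 (0.0268) or XY control replicate 1 (0.0432) or 2 (0.037), Cdkn1b without XX KO replicate 2 (0.0381) or XY control replicate 2 (0.042), and Runx1 without XY KO replicate 1 (0.0188) or 2 (0.0334). Over all genes the 465 calls became 142 to 664 when single libraries were left out.

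XX KO and XY KO gonads were compared with each other at E11.5 as well. edgeR called 0 of the 9, with 0.0844% of all tested genes called, and DESeq2 called 1, Foxl2. By edgeR's test 5 of the 9 had an unadjusted p under 0.05, beside 2291 of all 14217 tested genes. The test of whether the KO effect differed between the sexes likewise called 0 of 9, with 0.0352% of all genes called. There, 4 of the 9 had an unadjusted p under 0.05, as did 1825 of the 14217 tested genes. For Foxl2 all XY KO libraries lay above the XY controls and all XX KO libraries below the XX controls, and this difference of −1.87 ± 0.373 on the log2 scale had an FDR of 0.0908. DESeq2 called Foxl2 and Fst in this test, and edgeR called Foxl2 without XY control replicate 2 (0.0287).

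At E12.5, in isolated gonads, all 9 genes were higher in XX than in XY controls, by between 3.05-fold for Kitl and 190-fold for Fst. All 9 also rose in XY KO over XY control gonads. Against XX controls, Irx3 and Fst were lower in XY KO gonads and the other 7 did not pass the test. In XX KO gonads none of the 9 passed the test against XX controls, but Fst, Runx1, Cdkn1b and Kitl were below the XX controls in every library. Of all 14348 tested genes, 23.8% were DEGs between controls (11.4% higher in XX) and 20.6% between XY KO and XY control gonads (10.3% higher). The libraries of both comparisons did not overlap for any of the 9 genes, against 18% and 19.8% of all tested genes with all libraries higher. Each of the 18 calls was kept in every alternative, leaving out each library in turn included. Both comparisons share the XY control libraries, in which Irx5 had only 5, 5 and 4 reads.

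**Figure D2:**
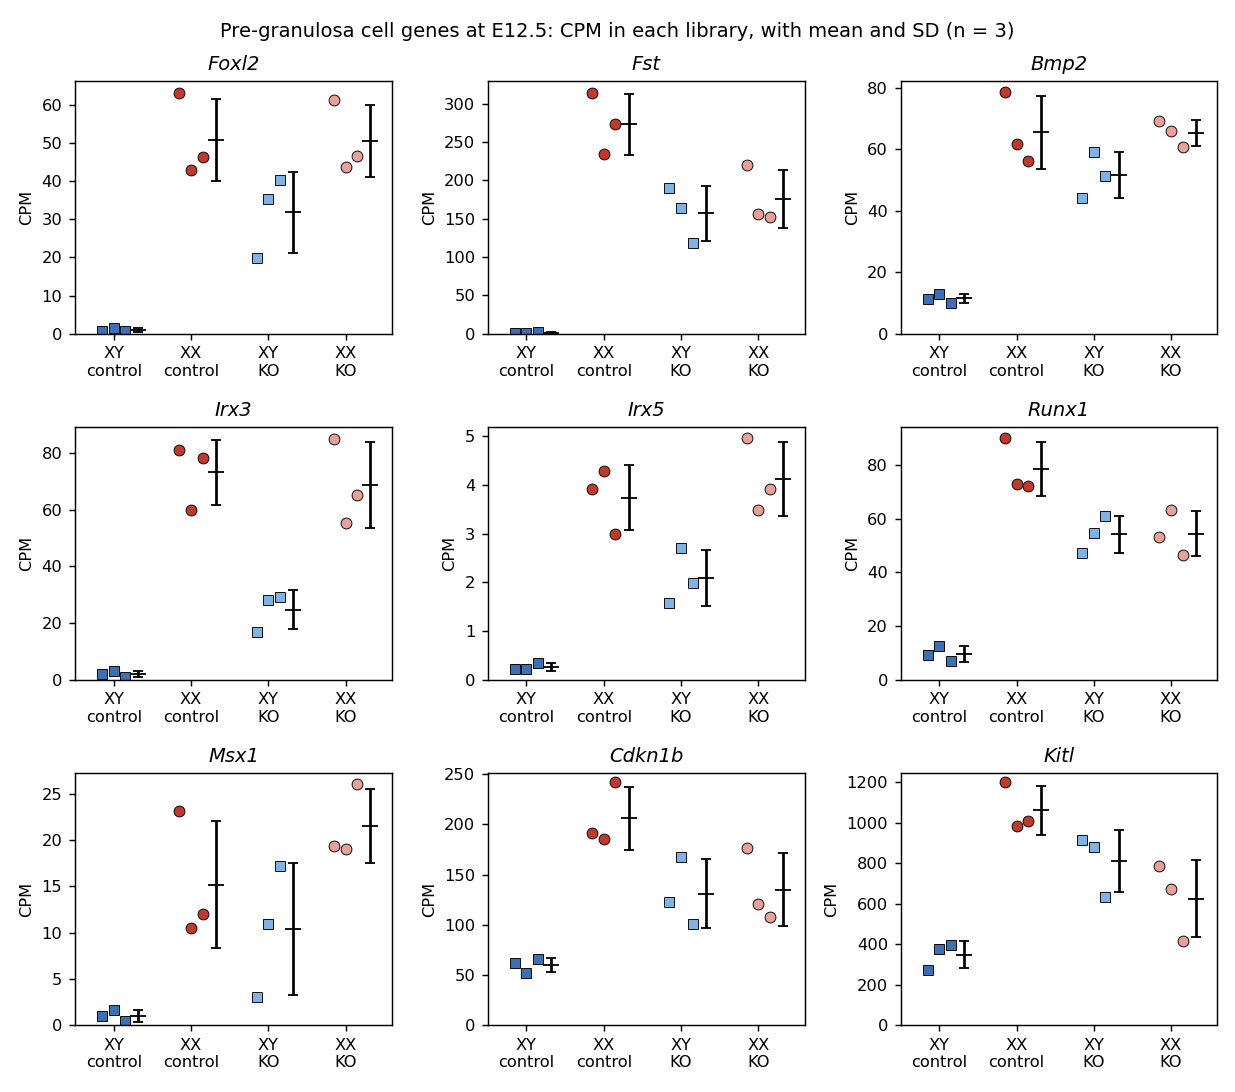
CPM of the 9 genes at E12.5 in each of the 12 gonad libraries (points), with the mean and SD of each genotype (bars, n = 3, y axis from 0). The XY controls were lowest for every gene, XY KO Irx3 stayed at 16.7 to 29.1 CPM against 60.1 to 81.1 in XX controls, and Kitl was lower in XX KO (416 to 784) than in XX control gonads (981 to 1200).

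Foxl2 stood at 0.609, 1.65 and 0.782 CPM in XY controls at E12.5, at 63.1, 43.0 and 46.4 in XX controls, at 19.8, 35.4 and 40.3 in XY KO and at 61.2, 43.6 and 46.5 in XX KO gonads. It was 30.3-fold higher in XY KO than in XY control gonads (log2 fold change 4.92 ± 0.36, FDR 2.96e-07). The 3 XY KO libraries were all below the XX controls, with a log2 difference of −0.67 (95% interval −1.24 to −0.10, FDR 0.171). XX KO and XX control libraries overlapped, with a difference of −0.01 (−0.58 to 0.55).

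Of the 9 genes Irx3 had the largest log2 difference between XY KO and XX control gonads at E12.5. It stood at 1.96, 2.95 and 0.956 CPM in XY controls, 81.1, 60.1 and 78.4 in XX controls, 16.7, 28.3 and 29.1 in XY KO and 85.1, 55.3 and 65.4 in XX KO gonads. XY KO gonads were 11.9-fold above XY controls (FDR 1.52e-06) and 2.95-fold below XX controls (log2 fold change −1.56 ± 0.258, FDR 0.00562). That deficit was called in every alternative and with each library left out. XX KO gonads were 2.77-fold above XY KO gonads (1.47 ± 0.257, FDR 0.0368). That second call was lost with only the 6 libraries compared (FDR 0.151) and without several single libraries. XX KO and XX control libraries overlapped (log2 difference −0.09, 95% interval −0.63 to 0.44).

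Irx5 was expressed at a low level, with 0.218, 0.217 and 0.348 CPM in XY controls, 3.92, 4.29 and 3.0 in XX controls, 1.58, 2.7 and 1.99 in XY KO and 4.96, 3.49 and 3.92 in XX KO gonads. No XY KO library reached the lowest XX control, but the log2 difference of −0.85 ± 0.27 had an FDR of 0.0883. It rose 8.26-fold over the XY controls (FDR 2.42e-05). Those controls held only 5, 5 and 4 reads, under the 1 CPM of the filter, which Irx5 passed through the other genotypes.

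Runx1 was the transcription factor for which XX KO and XY KO gonads were alike in mean. It stood at 9.06, 12.7 and 7.04 CPM in XY controls, 90.2, 73.1 and 72.4 in XX controls, 47.1, 54.6 and 60.9 in XY KO and 53.4, 63.2 and 46.5 in XX KO gonads. Every KO library lay below every XX control library, with log2 differences of −0.54 (FDR 0.116) in XY KO and −0.53 (FDR 0.104) in XX KO gonads that did not pass the test. The difference between the KO groups was 0.01 (95% interval −0.39 to 0.40).

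Msx1 was the most variable member. It stood at 1.0, 1.69 and 0.434 CPM in XY controls, 23.1, 10.5 and 12 in XX controls, 3.04, 10.9 and 17.2 in XY KO and 19.4, 19.0 and 26.0 in XX KO gonads. The XY KO libraries thus reached from near the XY controls to within the XX control range. It rose 9.38-fold over the XY controls (95% interval 4.04 to 21.8, FDR 0.000857), and its XX KO difference from XX controls was 0.49 (−0.48 to 1.47).

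Fst changed most of the 9 between XY KO and XY control gonads. It stood at 1.35, 1.17 and 2.0 CPM in XY controls, 314, 234 and 273 in XX controls, 190, 164 and 118 in XY KO and 220, 156 and 152 in XX KO gonads. The rise in XY KO was 109-fold (log2 fold change 6.77 ± 0.273, FDR 1.85e-09). Both KO groups lay below all XX controls. The XY KO deficit was 1.74-fold (−0.80 ± 0.193, FDR 0.0296) and the XX KO deficit 1.55-fold with an FDR of 0.0701. The XY KO call was lost without any 1 of the XX controls or without XY KO replicate 2 or 3 (FDR 0.0547 to 0.107).

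Bmp2 had the smallest log2 difference between XY KO and XX control gonads. It stood at 11.4, 13.0 and 9.99 CPM in XY controls, 78.7, 61.8 and 56.0 in XX controls, 44.1, 59.1 and 51.4 in XY KO and 69.2, 65.8 and 60.7 in XX KO gonads. XY KO and XX control libraries overlapped, with a log2 difference of −0.35 (95% interval −0.67 to −0.02, FDR 0.218). It rose 4.47-fold over XY controls (FDR 3.68e-07).

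Kitl was abundant in all groups. It stood at 271, 377 and 396 CPM in XY controls, 1200, 981 and 1010 in XX controls, 913, 882 and 633 in XY KO and 784, 675 and 416 in XX KO gonads. Of the 9 genes only Kitl had a higher mean in XY KO than in XX KO libraries, with a log2 difference of −0.37 (95% interval −0.84 to 0.09, FDR 0.329). XX KO gonads were below XX controls by −0.76 ± 0.218 (FDR 0.0578). Kit, the receptor, fell in XX KO against XX control gonads (−0.84 ± 0.18, FDR 0.0202), from 175, 217 and 133 to 97.2, 121 and 74.3 CPM. The sum of 7 germ cell markers, which include Ddx4 and Dazl, was 329 to 766 CPM in XX KO and 756 to 1470 in XX control gonads, with 1 of the 7 lower by the test, and its part in the Kit and Kitl values was not tested.

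Cdkn1b stood at 61.8, 52.3 and 66.0 CPM in XY controls, 191, 185 and 242 in XX controls, 123, 168 and 101 in XY KO and 177, 121 and 108 in XX KO gonads. It rose 2.18-fold in XY KO over XY control gonads (FDR 0.00131), the smallest rise of the 9. Both KO groups lay below every XX control, with log2 differences of −0.66 (FDR 0.0835) in XY KO and −0.61 (FDR 0.0957) in XX KO gonads.

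**Figure D3:**
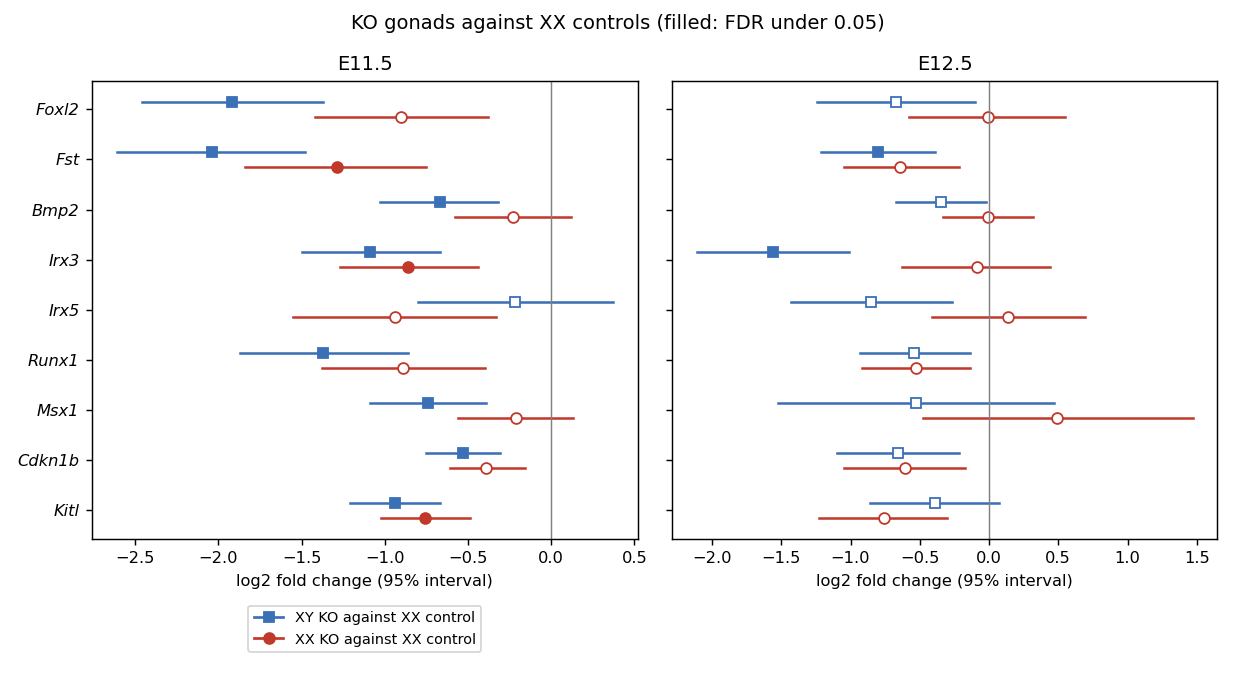
Log2 fold change of each gene in XY KO (squares) and XX KO (circles) against XX control gonads at E11.5 (left) and E12.5 (right), with 95% intervals and filled symbols where the FDR was under 0.05. At E11.5 8 XY KO and 3 XX KO differences were called, all below 0, and at E12.5 those of Fst and Irx3 in XY KO.

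In counts over the 9 genes at E12.5, XY KO against XX control gonads gave 2 lower DEGs, Irx3 and Fst, with 5.03% of all tested genes called and 1.61% lower. All 9 differences were negative with a median of −0.66, beside −0.02 for all genes, and the XY KO libraries lay below all XX controls for 7 of the 9, every one but Bmp2 and Msx1 (14.4% of all genes). Only Irx3 was left when any 1 of the XX controls or XY KO replicate 2 or 3 was left out, and Cdkn1b gained a call without XX KO replicate 1 (FDR 0.0468). Over all genes the 721 calls became 164 to 927 when single libraries were left out.

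XX KO against XX control gonads gave 0 of 9 by edgeR at E12.5, with 5.26% of all tested genes called and 1.85% lower. Of the 9, 4 had an unadjusted p under 0.05, beside 3385 of all 14348 tested genes. DESeq2 called the same 4, Fst, Runx1, Cdkn1b and Kitl. These 4 lay below all XX controls (10.5% of all genes did). Without XX KO replicate 1 edgeR called Fst, Cdkn1b and Kitl (FDR 0.0315, 0.0307 and 0.0326), leaving out XX KO replicate 2 gave Runx1 (0.0473) and leaving out XY KO replicate 3 gave Fst and Kitl (0.048 and 0.0478). Over all genes the 755 calls became 738, 1670 and 758 in these 3 fits, and 35 to 1670 over all libraries left out in turn. The other 5, Foxl2, Bmp2, Irx3, Irx5 and Msx1, had XX KO differences of −0.09 to 0.49 whose 95% intervals all held 0. This division of the 9 was made after their values were seen.

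XX KO against XY KO gonads gave 1 of 9 at E12.5, Irx3, with 0.153% of all tested genes called and 0.0139% higher in XX KO. The call was lost without XX control replicate 1 or 3, XX KO replicate 1 or 3, XY control replicate 1 or any XY KO replicate (FDR 0.0602 to 0.25), and leaving out XX KO replicate 2 added Irx5 (0.031) while the number of all genes called went from 22 to 1828. The libraries of XX KO lay above those of XY KO for Foxl2, Bmp2, Irx3, Irx5 and Msx1 (10.3% of all genes). The KO effect differed between the sexes for all 9 genes, with 12.9% of all tested genes called and 5.9% in this direction. The differences ran from −1.73 for Cdkn1b to −7.41 for Fst on the log2 scale, and by construction they also hold the difference between the controls. That of Msx1 (FDR 0.0222) missed the threshold without XX control replicate 1, XY control replicate 1 or 3, or XY KO replicate 3 (0.054 to 0.0719).

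The distance covered by KO gonads was described on a scale that sets the XY control mean at 0 and the XX control mean at 100%. It was computed on log2(CPM + 2) for genes called between the controls. Both control means were held fixed, so the SDs hold the spread of the 3 KO libraries and not that of the controls. At E11.5 XY KO gonads were at 25.9% ± 7.34 (SD, n = 3) for Foxl2, 43.7% ± 6.61 for Bmp2, 0.457% ± 12.3 for Fst and −33.1% ± 1.96 for Kitl. XX KO gonads were at 60.7% ± 17.4, 78.4% ± 30.7, 34.4% ± 20.9 and −8.73% ± 33.2 for the same genes. Kitl was thus below the XY control mean in 5 of 6 KO libraries. Its difference between XY KO and XY control gonads did not pass the test, at −0.23 on the log2 scale (95% interval −0.50 to 0.04, FDR 0.237). For the 51 genes higher in XX controls at E11.5, which include Foxl2, Fst, Bmp2 and Kitl, the median position was 2.82% in XY KO and 46.9% in XX KO gonads. The same control libraries chose these genes and set the scale.

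At E12.5 XY KO gonads were at 87.2% ± 5.49 for Fst, 85.8% ± 8.72 for Bmp2, 83.5% ± 12.3 for Foxl2, 81.5% ± 6.37 for Runx1, 75.3% ± 40.5 for Msx1, 75.0% ± 18 for Kitl, 64.4% ± 9.69 for Irx3, 63.3% ± 14.8 for Irx5 and 61.5% ± 21.1 for Cdkn1b. Neighbours in this order differed by less than the larger of their SDs, and the highest XY KO library stood at 70.5% for Irx3 and 79.0% for Irx5. XX KO gonads were at or near 100% for Bmp2 (100% ± 4), Foxl2 (99.8% ± 6.07) and Irx3 (97.6% ± 7.13). They were above it for Irx5 (107% ± 13.1) and Msx1 (121% ± 9.53), and below it for Fst (89.8% ± 4.65), Runx1 (81.6% ± 7.59), Cdkn1b (64.2% ± 21.1) and Kitl (50.1% ± 29.5). In the test of XX KO against XX control gonads none of the 9 passed, Irx5 (FDR 0.775) and Msx1 (FDR 0.524) included. The median over the 1634 genes higher in XX controls, the 9 among them, was 71.5% in XY KO and 82.4% in XX KO gonads. The scale matters, since on linear CPM the XY KO positions were 57.3% for Fst, 61.8% for Foxl2 and 32% for Irx3, and at E11.5 15.2% for Foxl2.

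**Figure D4:**
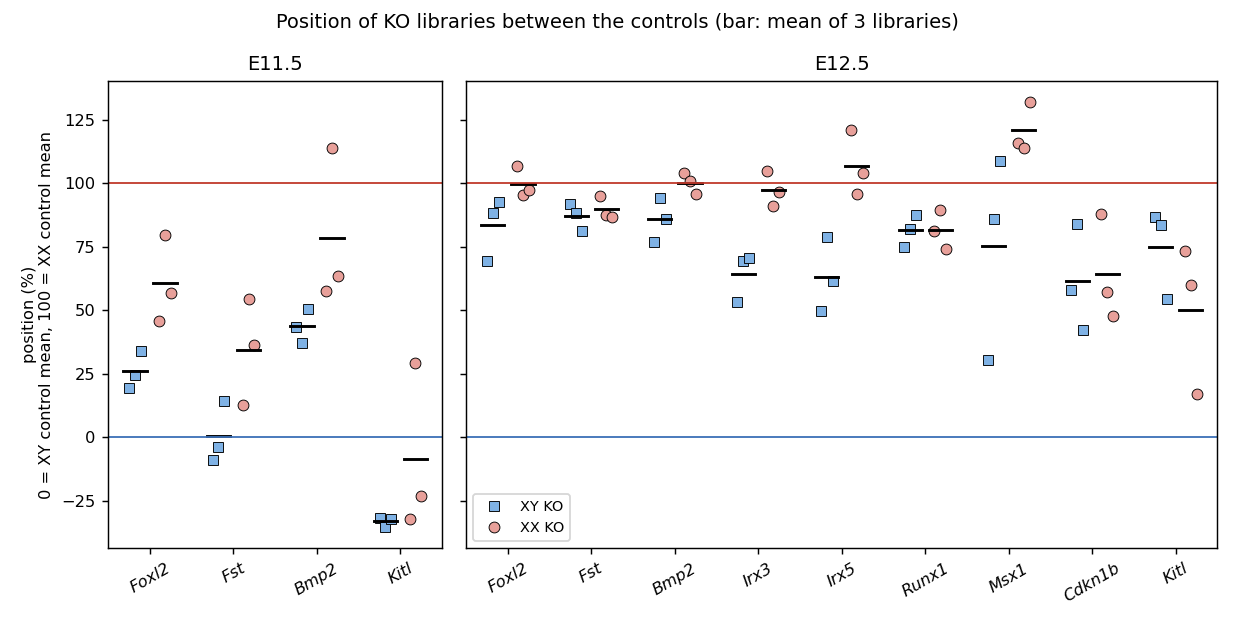
Position of each KO library (points, squares XY KO, circles XX KO, black bar the mean of 3) between the XY control mean at 0% and the XX control mean at 100% (horizontal lines), on log2(CPM + 2), for the 4 genes called between controls at E11.5 and the 9 at E12.5. Irx3 and Irx5 had XY KO libraries at 49.6% to 79.0% and XX KO libraries at 91.1% to 121%, whereas Runx1 overlapped between the KO groups.

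The 3 XY KO libraries of E12.5 did not rank alike across the genes. Replicate 1 was the lowest of the 3 for Foxl2, Bmp2, Irx3, Irx5, Runx1 and Msx1 and the highest for Fst and Kitl. The summed level of 8 mesonephric tubule and duct markers was 35 CPM in that library and 68.7 and 109 in XY KO replicates 2 and 3, against 29.8 to 36.6 in XY controls and 37.8 to 45.8 in XX controls. It was 58.1 to 147 CPM in XX KO libraries. Of the 8 markers, 6 were higher and 1 lower by the test in XY KO against XY control, and 4 were higher in XX KO against XX control gonads. Each of the 9 genes was above every XY control library in all 3 XY KO libraries, and the part of the mesonephric markers in these results was not tested. Of 12 Sertoli cell markers, all 12 fell in XY KO against XY control gonads and 7 stayed higher than in XX controls, with sums of 82.7 to 116 CPM in XY KO, 50.3 to 70.9 in XX control and 2170 to 3010 in XY control gonads.

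Compared per length of exon at E12.5, Kitl was the most abundant of the 9 in XX controls, at 180 ± 20.1 CPM per kilobase (SD, n = 3). Fst followed at 59.6 ± 8.72, Cdkn1b at 45.3 ± 6.88, Irx3 at 26.5 ± 4.14, Bmp2 at 18.4 ± 3.32, Foxl2 at 15.6 ± 3.3, Runx1 at 6.53 ± 0.838, Msx1 at 4.91 ± 2.22 and Irx5 at 1.19 ± 0.212. Bmp2 and Foxl2, and Runx1 and Msx1, differed by less than the larger of their SDs. In XY controls the order changed, with Kitl at 58.9 ± 11.4, Cdkn1b at 13.2 ± 1.54 and Bmp2 at 3.22 ± 0.424 CPM per kilobase and the other 6 under 1.

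Other ovarian and pre-granulosa genes were taken from a list of 12 that includes Wnt4, Rspo1, Axin2 and Lef1. At E12.5, 10 of the 12 were higher in XX than in XY controls and 8 rose in XY KO gonads, with 0 lower, at median log2 differences of 2.16 and 1.89. At E11.5 only 1 of 11 tested was higher in XX controls, while 2 rose and 4 fell in XY KO against XY control gonads. The 3 of the list with the largest E12.5 changes were Lypd6, a modulator of WNT signalling, Adamts19, a metalloprotease of the fetal ovary, and Msx2, a relative of Msx1. Lypd6 reached 81.7, 84.6 and 71.8 CPM in XY KO against 81.2, 79.1 and 93.6 in XX control and 6.18, 6.59 and 9.3 in XY control gonads. Both groups overlapped, with a log2 difference of −0.09 (95% interval −0.39 to 0.20). Msx2 remained below, at 6.72, 9.58 and 6.96 CPM against 19.6, 22.2 and 17.2 in XX controls (log2 fold change −1.35 ± 0.261, FDR 0.0109). Adamts19 was 3.22 ± 0.23 higher on the log2 scale in XY KO than in XY control gonads, and at E11.5 it had already risen in both KO groups over their controls (0.85 and 0.64, FDR 0.00463 and 0.045), when controls did not differ by the test (0.14, FDR 0.68).

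Receptors, ligands, partners and relatives of the 9 genes formed a list of 27, of which 23 were tested at E12.5. In XY KO against XY control gonads 5 rose, 3 fell and 15 did not pass, with a median of −0.10. Besides Msx2, the largest changes were those of Inha and Inhba, which encode the inhibin alpha and beta A subunits, the latter also the subunit of the activin that follistatin blocks. Inha fell from 227, 105 and 128 CPM in XY controls to 20.3, 26.2 and 27.7 in XY KO gonads (log2 fold change −2.63 ± 0.254, FDR 3.73e-06), beside 32.1 to 38.7 in XX controls. Inhba fell from 25.9, 12.1 and 22.8 to 4.5, 5.26 and 3.93 CPM (−2.15 ± 0.554, FDR 0.0126) but stayed above the 0.625 to 0.858 of XX controls (2.57 ± 0.668, FDR 0.0418). Fst was thus below and Inhba above the XX controls in the same XY KO libraries, though the Fst call was lost without some single libraries. In XX KO gonads neither difference passed the test. Their Inhba stood at 0.493, 6.54 and 4.43 CPM (2.34 ± 0.66 against XX controls, FDR 0.0555), with replicate 1 below all XX controls. Their Fst lay below all XX controls (FDR 0.0701).

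The genes other than the 9 whose pattern over the 12 libraries of E12.5 was most like that of Foxl2 were ranked by Pearson's r of log2(CPM + 2), as a description of libraries that share genotypes. They were Elfn1 (r = 0.991), Rec8 (0.984), Anpep (0.983), Tnfrsf19 (0.982) and Tmem171 (0.982), of 14339 ranked. Among the members Bmp2 was most like Foxl2 (0.994), then Irx3 (0.978), Fst (0.974), Runx1 (0.973), Irx5 (0.952), Msx1 (0.937), Cdkn1b (0.863) and Kitl (0.79). Over the 12 libraries of E11.5 Bmp2 was again the most like it among the members (0.959), and Irx5 had a negative r (−0.271). Tnfrsf19, a receptor of the tumour necrosis factor family, stood at 27.8, 37.5 and 30.3 CPM in XY controls, 344, 315 and 324 in XX controls, 292, 265 and 259 in XY KO and 336, 288 and 278 in XX KO gonads.

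Of the 4 genes with a seed match shown above, at E11.5 Foxl2 rose and Runx1, which held 2 matches, fell in XY KO gonads. Fst and Cdkn1b did not pass the test, and Bmp2 rose without a match. The calls of Foxl2, Runx1 and Bmp2 were weak, as none passed with only the 6 libraries compared (FDR 0.0818, 0.0556 and 0.0609). In XX KO gonads of E11.5 Fst fell, and Foxl2, Runx1 and Cdkn1b had log2 differences of −0.90, −0.89 and −0.39 that did not pass the test. Whether the cluster acts on any of the 9 genes directly was not tested here. The study treats the miR-17 site in the Foxl2 3′ UTR as established, and saw no effect on sex differentiation after deleting it. Its authors propose that losing a single site was probably too little to shift the female pathway. At E12.5 all 9 genes, with or without a match, rose in XY KO over XY control gonads.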

How the data were processed

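RNA-seq libraries of 4 genotypes at E11.5 and E12.5, with 3 libraries per group, were analysed from the counts per gene that the authors deposited. Per the methods of the study, the authors mapped paired reads to mm10 and counted them per gene with align and featureCounts of the R package subread, and each library held 2 pairs of gonads. The gene annotation, strand setting and handling of multi-mapping reads are not given in the sources used here.

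A gene was kept when 2 or more of the 12 libraries from its stage reached 1 CPM, and TMM factors were between 0.944 and 1.04. Each stage was fitted with 1 mean per genotype by edgeR 4.0.16 (quasi-likelihood test, R 4.3.3), with Benjamini-Hochberg adjustment over all tested genes and a threshold of 0.05 on the FDR. The fit was tested on simulated data before use. CPM values use TMM-scaled library sizes. Totals of 17150620 to 34077443 counts at E11.5 and 11877379 to 44155275 at E12.5 set the precision, and low genes such as Irx5 rest on the fewest reads. Alternatives were DESeq2 1.42.0, other scalings, no filter, a replicate block, the 6 compared libraries only and leaving out each library.

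The 9 genes and all lists were chosen with earlier results of these data known. Beside the 9, the text names the 3 DEGs of each related list that changed most between XY KO and XY controls at E12.5, Kit as the receptor of Kitl, and the 5 genes most like Foxl2. Sox9, Amh and Mir17hg are given as checks. A second count of the XY controls was used only for the ratio of its counts, and 6 further per-sample columns beside it were not used. GRCm38 is the Genome Reference Consortium name of mm10.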

Additional observations from a re-analysis of the deposited data

Results flagged for a closer look

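The KO effect differed between XX and XY gonads for all 9 genes at E12.5, by the test of the difference of differences (XX KO minus XX control, less XY KO minus XY control). On the log2 scale the difference was −7.41 for Fst, −4.93 for Foxl2, −3.67 for Irx3, −3.01 for Runx1, −2.91 for Irx5, −2.74 for Msx1, −2.17 for Bmp2, −1.98 for Kitl and −1.73 for Cdkn1b. Its FDR was between 2.12e-08 for Fst and 0.0222 for Msx1 (edgeR's quasi-likelihood test). In each case all 3 XY KO libraries lay above the XY controls, as they did for 19.8% of all tested genes. The test of the difference called 12.9% of all tested genes, and 5.9% in this direction. The same quantity is XX KO minus XY KO, less XX control minus XY control, so it also holds the difference between the controls.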

How the results depend on the processing

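The rises of all 9 genes in XY KO over XY control gonads and their higher level in XX than in XY controls at E12.5 passed in every alternative run. Of 1926 alternative values of single log2 differences, 1794 kept their direction and side of the threshold, 61 lost and 43 gained a call, and 28 changed sign. The cause of these changes was not tested. Fewer reads behind low genes, such as Irx5, limit what could be called.

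By DESeq2 the number of the 9 genes called was 7 for XX against XY controls, 6 for XX KO against XX control, 1 for XX KO against XY KO and 2 for the difference between sexes at E11.5, and 4 for XX KO against XX control gonads at E12.5. When library size alone set the scale it was 5 for XX KO against XX control at E11.5. Without the filter it was 1 for the difference between sexes at E11.5 and 0 for XX KO against XY KO at E12.5. With the 6 compared libraries alone it was 0 for XY KO against XY control at E11.5 and 0 for XX KO against XY KO at E12.5.

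Leaving out single libraries gave 3 to 7 of the 9 for XX against XY controls, 0 to 3 for XY KO against XY control, 1 to 5 for XX KO against XX control and 0 to 1 for the difference between sexes at E11.5. At E12.5 it gave 1 to 3 for XY KO against XX control, 0 to 3 for XX KO against XX control and 0 to 2 for XX KO against XY KO. Over all genes, the calls without single libraries ran from 56 to 2495 for XX against XY controls, 814 to 2891 for XY KO against XY control, 544 to 1995 for XY KO against XX control, 142 to 664 for XX KO against XX control, 8 to 202 for XX KO against XY KO and 2 to 228 for the difference between sexes at E11.5. At E12.5 they ran from 164 to 927 for XY KO against XX control, 35 to 1670 for XX KO against XX control and 13 to 1828 for XX KO against XY KO.

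Over all tested genes, DESeq2 called more than edgeR at E11.5 for XX against XY controls (439 against 126), XX KO against XX control (778 against 465), XX KO against XY KO (264 against 12) and the difference between sexes (164 against 5, and 14 without the filter). It also did so at E12.5 for XY KO against XX control (1214 against 721), XX KO against XX control (1456 against 755) and XX KO against XY KO (66 against 22). The 6 compared libraries alone gave 779 against 1804 for XY KO against XY control and 2442 against 1293 for XY KO against XX control at E11.5, and 296 and 11 for XX KO against XX control and against XY KO at E12.5.

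The values that changed sign were small and not called. Without the filter they were 0.01 for Fst in XY KO against XY control at E11.5, and 0 for Foxl2 and 0.01 for Bmp2 in XX KO against XX control at E12.5. Runx1 in XX KO against XY KO at E12.5 was −0.01 with RLE size factors, by DESeq2 and with the replicate block. With single libraries left out, Fst ranged from −0.24 to 0.26 and Msx1 from −0.1 to 0.03 in XY KO against XY control at E11.5, and the Runx1 difference between sexes from −0.21 to 0.35. In XX KO against XX control at E12.5 Foxl2 ranged from −0.18 to 0.17, Bmp2 from −0.1 to 0.15, Irx3 from −0.28 to 0.04 and Irx5 from −0.02 to 0.25. In XX KO against XY KO at E12.5 Fst ranged from −0.03 to 0.33, Runx1 from −0.12 to 0.11 and Cdkn1b from −0.19 to 0.28.

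Libraries of different groups share only a replicate number: correlations of same-numbered libraries ran from −0.67 to 0.61 and were over 0.1 in 10 of 30 pairs. With the replicate number as a block, 1 gene was called for XX KO against XX control at E12.5 (Fst, FDR 0.044) and 0 for XX KO against XY KO, Msx1 missed the threshold in the difference between sexes (0.0533) and Bmp2 in XY KO against XY control at E11.5 (0.0513).

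On linear CPM in place of log2(CPM + 2), XY KO positions moved to 15.2% for Foxl2, 34.3% for Bmp2 and −23.4% for Kitl at E11.5, and to 61.8% for Foxl2, 57.3% for Fst, 74.2% for Bmp2, 32% for Irx3 and 64.6% for Runx1 at E12.5. XX KO positions moved to 64.1% for Fst, 64.9% for Runx1 and 144% for Msx1.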

Other observations

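Genes of the gonadal somatic cells of both sexes, which include Wt1, Nr5a1 and Gata4, formed a list of 6, of which 3 rose and 1 fell in XY KO gonads of E12.5 against XY controls. None of the 6 was a DEG in XY KO or XX KO against XX control gonads at that stage by edgeR. At E11.5, 2 of the 6 fell in XY KO against XY control complexes.

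Of 6 endothelial markers 2 rose in XY KO gonads of E12.5 against XY controls and none changed by the test at E11.5. Of 8 erythroid markers 4 were tested, which left out the adult globin genes, and none was a DEG in any comparison. Their summed level in 1 XX KO library of E11.5, replicate 3, was 3970 CPM, beside 1140 to 2230 in the other 11 libraries of that stage.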
